A study of Homo sapiens with 6 samples.

Results

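The genes of the human mitochondrial genome were followed in human lung fibroblasts depleted of the long noncoding RNA sin-lncRNA. The members are every gene of the table whose name starts with MT-, which gave 37 of 57819 genes: 13 protein-coding genes, 2 rRNA genes and 22 tRNA genes, all on chromosome M. The cells were IMR90 ER:Ras, human lung fibroblasts of an established line in which oncogenic Ras is joined to the hormone-binding part of the estrogen receptor, so that 4-hydroxytamoxifen (4OHT) switches it on. All 6 libraries came from cells with ER:Ras that received 200 nM 4OHT for 3 days. The 3 control libraries had a scrambled siRNA (siSCR), and the 3 knockdown libraries had an siRNA against sin-lncRNA. The comparison thus shows what knockdown changed within 4OHT-treated cells, and cells given vehicle were not analysed here. RNA selected for poly(A) tails was sequenced as single 50 bp reads. The labels do not say that replicates were separate cultures or what drives ER:Ras, so p-values measure the spread between these samples, which may be technical.

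Mitochondrial DNA is a small circle present in many copies per cell, and a single RNA polymerase, POLRMT, copies each of its strands into long RNAs that span most of the genome. tRNA genes lie between most of the mRNA and rRNA genes, and enzymes cut the tRNAs out to release the RNAs beside them. The mRNAs encode core subunits of respiratory complexes I, III and IV and of ATP synthase, whose other subunits come from nuclear genes, while the rRNAs and tRNAs serve the mitochondrial ribosome. After cutting, most mRNAs gain a poly(A) tail and the rRNAs a short adenylate tail, and for some mRNAs the tail completes the stop codon.

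The 3′ ends of the mRNA genes show why poly(A) tails matter in this genome: of the 13 coding sequences, 6 end with only 1 or 2 bases of a stop codon, and the tail adds the rest. The sequences were read from GENCODE 29 transcripts by gene ID, and the chromosome M coordinates of all 37 genes were the same there and in the table. Each line below gives the last 12 bases before the ending in lower case and the encoded part of the stop codon in capitals, for the mRNA with the largest difference between groups, the mRNA with the highest level per length, one further incomplete ending, and the mRNA on the minus strand.
MT-ND1: ccccctcaaaccTA
MT-CO2: gtatttaccctaTAG
MT-CYB: ctcaaatgggccT
MT-ND6: gctcgggggaatAGG
MT-ND1 and MT-CYB are completed by adenylation, MT-CO2 carries a full TAG, and MT-ND6 ends in AGG.

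Adjoining genes also share bases. The end of MT-ATP8 and the start of MT-ATP6 overlap by 46 bases, shown here from the ATG of MT-ATP6 (capitals) to the stop codon of MT-ATP8.
MT-ATP8/MT-ATP6: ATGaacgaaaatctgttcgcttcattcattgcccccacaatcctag
MT-ND4L and MT-ND4 overlap by 7 bases. MT-ATP6 and MT-CO3 share base 9207, and the tRNA genes MT-TC and MT-TY share base 5826. A read in such an overlap belongs to both genes. The values of these genes therefore depend on how the counting treated shared reads, which is not given in the sources used here.

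The minus-strand tRNA genes with the most reads are printed next, because 3 of them were among the genes called higher. Capitals mark the anticodon.
MT-TN (asparagine): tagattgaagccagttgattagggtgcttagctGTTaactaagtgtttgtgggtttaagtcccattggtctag
MT-TC (cysteine): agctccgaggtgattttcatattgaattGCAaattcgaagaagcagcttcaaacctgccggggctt
MT-TY (tyrosine): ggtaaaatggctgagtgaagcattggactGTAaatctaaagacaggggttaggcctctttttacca
MT-TS1 (serine): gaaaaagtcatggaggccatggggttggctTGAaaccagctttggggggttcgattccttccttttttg
MT-TN and MT-TC flank the origin from which the light strand of the circle is replicated, and MT-TY shares base 5826 with MT-TC.

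Controls had 30271192 to 50913672 reads in genes, and the knockdowns were all shallower, with 22117324 to 27882280. The targeted lncRNA (RP4-530I15.6 in the table) stood at 3.70, 4.73 and 4.09 CPM (reads scaled to library size) in control replicates 1, 2 and 3 and at 0.49, 0.64 and 0.53 in knockdown replicates 1, 2 and 3, a log2 fold change of -2.86 (SE 0.18, limma adjusted p = 7.9e-07). Of 19048 genes with enough reads to test, 41.0% passed an adjusted p (Benjamini-Hochberg) of 0.05, 17.5% as higher and 23.5% as lower in knockdown. Over those 19048 genes the log2 fold change had a median of -0.04. All 10 fibroblast markers were above 1 CPM, with a summed level of 15668 to 16885 CPM in controls and 11355 to 11756 in knockdowns. They did not move together: 5 fell, among them the abundant COL1A1 (log2 fold change -0.88), COL1A2 (-0.77) and VIM (-0.40), and 5 rose (COL3A1 0.38, PDGFRA 0.43, THY1 0.19, LUM 0.68 and FAP 0.33), all with limma adjusted p under 0.05. The 4 epithelial markers summed to 0.29 to 0.53 CPM, the 3 immune markers to 0.13 to 0.25, and the 2 endothelial markers used here to 1.67 to 1.83 in controls and 2.20 to 2.60 in knockdowns. What the shallower knockdown libraries contribute to the results was not tested, except that thinning every library to the smallest total left 10 of the mitochondrial genes called, beside 40% of all genes in that fit. In bulk RNA, fewer cells of a type and less RNA per cell cannot be told apart.

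Knockdown cells had more reads from a minority of the mitochondrial genes, among them the rRNA of the large ribosomal subunit, MT-RNR2, which rose most, the asparagine tRNA gene MT-TN and the complex I mRNA MT-ND1. Of the 37 genes, 32 had the mean of 10 normalized reads needed for testing, and 11 of those 32 (34.4%) rose, beside 17.5% of all genes and 22.2% of protein-coding genes tested. None fell in limma, and none had an unadjusted p under 0.05 in that direction, which 28% of all genes did. Limma-voom on the recovered reads called the same 11 genes higher, beside 17.7% of all genes, and none lower. No other mitochondrial gene had an unadjusted p under 0.05. In 10 genes every knockdown library lay above every control, which held for 22.6% of all genes tested. The median log2 fold change of the 32 was 0.12. When control replicate 3, which had the most reads, was removed, 6 genes were called (MT-RNR1, MT-RNR2, MT-ND1, MT-TN, MT-TC and MT-TY), beside 31% of all genes, and the count at an adjusted p under 0.01 was also 6, beside 27.3%. These 6 were called in all of 21 other fits, apart from one scaled to mitochondrial reads that is described further on, and the other 5 were each lost in at least one.

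**Figure D1:**
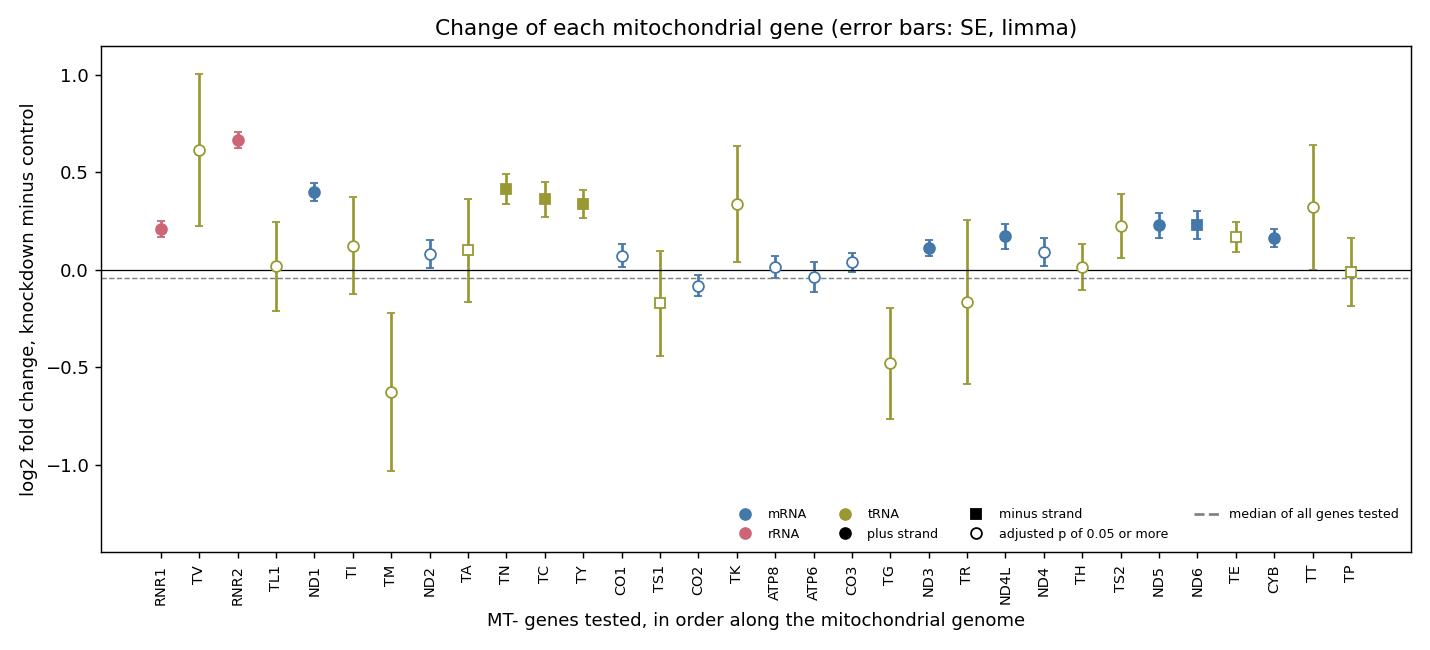
Log2 fold change (knockdown minus control, vertical axis) of the 32 mitochondrial genes tested, in order along the genome, with the SE of the limma fit as bars; colours give the transcript class, squares the minus strand and filled symbols an adjusted p under 0.05. MT-RNR2 stands highest of the filled symbols at 0.67, followed by MT-TN at 0.41 and MT-ND1 at 0.40, and the dashed line marks the median of all genes at -0.04.

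The 2 rRNAs, which form the RNA core of the mitochondrial ribosome, both had more reads in knockdown cells. These are values of poly(A)-selected RNA and say little of total rRNA. MT-RNR2 (chrM:1671-3229, plus strand) stood at 3090, 3280 and 3204 CPM in the controls and at 5052, 5159 and 4983 CPM in the knockdowns, and the groups lay far apart compared with their own spread. Its log2 fold change was 0.67 (SE 0.04, limma adjusted p = 1.1e-06). MT-RNR1, the small-subunit rRNA (chrM:648-1601, plus strand), measured 623, 625 and 609 CPM in controls and 715, 695 and 739 CPM in knockdowns. It was higher in all 3 knockdowns by a smaller amount, 0.21 (SE 0.04, adjusted p = 0.0016). Both rRNA genes lie on the same strand and are separated only by MT-TV, the valine tRNA gene. Within each library the MT-RNR1 to MT-RNR2 read ratio was 0.202, 0.191 and 0.190 in controls and 0.142, 0.135 and 0.148 in knockdowns, so it was lower in every knockdown. The log2 ratio differed by -0.46.

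Of the 13 mRNAs, 6 rose (46.2%, beside 17.5% of all genes and 22.2% of protein-coding genes tested) and 7 did not pass the test. The 6 all encode subunits of complex I or complex III, and without control replicate 3 only MT-ND1 of them was called. The median log2 fold change of the 13 was 0.09. Among the complex I mRNAs 5 of 7 rose, and the single complex III mRNA rose. None of the 3 complex IV mRNAs and neither of the 2 ATP synthase mRNAs passed the test. Whether the complexes differ from each other was not tested beyond the shares of reads given further on.

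MT-ND1, a membrane subunit of complex I (chrM:3307-4262), was the mRNA with the largest difference. It measured 870, 961 and 899 CPM in controls and 1238, 1185 and 1178 CPM in knockdowns, a log2 fold change of 0.40 (SE 0.05, limma adjusted p = 6.3e-05). The 3 knockdowns lay close together, well above the controls. It follows MT-RNR2 on the plus strand with only the leucine tRNA gene MT-TL1 between them, and within libraries MT-RNR2 gave 3.55, 3.41 and 3.56 reads per MT-ND1 read in controls and 4.08, 4.36 and 4.23 in knockdowns. This ratio was higher in every knockdown than in any control.

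The other complex I mRNAs that rose changed less. MT-ND5, a proton-pumping subunit, stood at 2903, 3448 and 3003 CPM in controls and at 3851, 3594 and 3492 CPM in knockdowns (log2 fold change 0.23, SE 0.07, limma adjusted p = 0.016), and the highest control nearly reached the lowest knockdown. MT-ND6, the single mRNA of the minus strand, had 664, 746 and 639 CPM in controls and 885, 793 and 727 CPM in knockdowns (0.23, SE 0.07, adjusted p = 0.028). Control replicate 2 lay above knockdown replicate 3, so these groups overlapped. The MT-ND6 values are reads over its locus in poly(A)-selected RNA. As the strand setting is not given, they cannot be told apart from reads of the plus strand there. MT-ND4L had 875, 1039 and 896 CPM in controls and 1102, 1049 and 1009 CPM in knockdowns (0.17, SE 0.06, adjusted p = 0.049), again with an overlap at control replicate 2. MT-ND3 had 443, 431 and 438 CPM in controls and 489, 471 and 458 CPM in knockdowns (0.11, SE 0.04, adjusted p = 0.043). Its groups did not overlap, although the difference was the smallest of the genes called. Without control replicate 3 the adjusted p of MT-ND5, MT-ND6, MT-ND4L, MT-ND3 and MT-CYB all missed 0.05.

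The 2 complex I mRNAs that did not pass were MT-ND2 and MT-ND4. MT-ND2 stood at 1391, 1644 and 1476 CPM in controls and 1716, 1598 and 1457 CPM in knockdowns (0.08, SE 0.07, adjusted p = 0.39). MT-ND4 stood at 7046, 8277 and 7249 CPM in controls and 8597, 8030 and 7376 CPM in knockdowns (0.09, SE 0.07, adjusted p = 0.35). In both genes the knockdown and control ranges ran across each other. Complex III is represented by MT-CYB, cytochrome b, at 1817, 1943 and 1780 CPM in controls and 2138, 2057 and 2014 CPM in knockdowns, which rose by 0.16 (SE 0.05, adjusted p = 0.015) with every knockdown above every control.

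The complex IV mRNAs, which encode the catalytic core of cytochrome c oxidase, were among the most abundant RNAs of the cells and did not pass the test. MT-CO1 measured 9789, 10830 and 9771 CPM in controls and 11145, 10624 and 10193 CPM in knockdowns (0.07, SE 0.06, adjusted p = 0.33, and -0.07 after quantile normalization). MT-CO2 measured 5351, 5863 and 5515 CPM in controls and 5443, 5410 and 4968 CPM in knockdowns (-0.08, SE 0.05, adjusted p = 0.26, and 0.10 after quantile normalization). MT-CO3 measured 4044, 4273 and 4099 CPM in controls and 4463, 4219 and 4079 CPM in knockdowns (0.04, SE 0.05, adjusted p = 0.55). For each of these genes the sign itself depended on the scaling, as MT-CO3 stood at -0.09 when scaled to mitochondrial reads. The ATP synthase mRNAs showed overlapping groups as well. MT-ATP8 had 342, 332 and 345 CPM in controls and 370, 313 and 347 CPM in knockdowns (0.01, SE 0.06, adjusted p = 0.87). MT-ATP6 had 2706, 3156 and 2702 CPM in controls and 3078, 2713 and 2552 CPM in knockdowns (-0.04, SE 0.08, adjusted p = 0.72).

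Set on a common scale per gene length, the mitochondrial RNAs spanned several orders of magnitude, and the order was led by complex IV. In controls MT-CO2 had 8152 ± 382 CPM per kb of gene and MT-CO1 6569 ± 393 (SD, n = 3). MT-ND4 followed at 5460 ± 479 and MT-CO3 at 5279 ± 153, whose control ranges overlapped. Next came MT-ATP6 at 4192 ± 383, MT-ND4L at 3154 ± 301 and MT-RNR2 at 2047 ± 61.4, with no overlap between these neighbours. MT-ND5, MT-ATP8, MT-CYB, MT-ND2, MT-ND6 and MT-ND3 lay between 1721 and 1263 CPM per kb, and each overlapped the next in order. MT-ND1 at 952 ± 48.4 and MT-RNR1 at 649 ± 9.08 CPM per kb were the lowest of the mRNAs and rRNAs. The 2 rRNA values are those of poly(A)-selected RNA and say little of total rRNA. All these levels leave out reads assigned to nuclear copies of the genes, described further on. Per 100 reads in the gene, controls averaged 34.2 in copies of MT-ATP6, 29.9 of MT-CO1 and 25.5 of MT-CO3. For MT-CO2 the number was 19.7, for MT-ND4 5.95 and for MT-ND4L 0.026. The order was not recalculated with those reads added, which could change it. In knockdowns MT-RNR2 had 3249 ± 57.2 CPM per kb and MT-ND1 1255 ± 34.3.

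**Figure D2:**
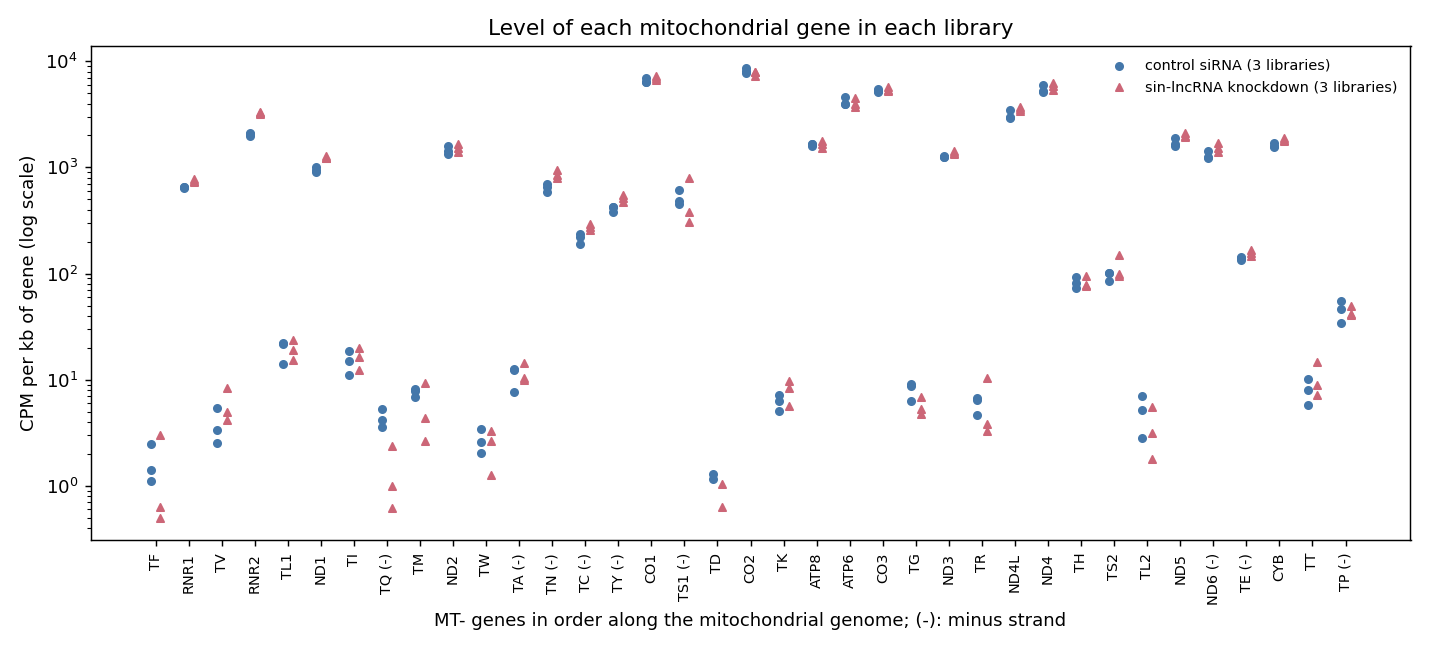
Level of each of the 37 genes in CPM per kb of gene (vertical axis, log scale) in each library, in order along the genome; circles are the 3 controls and triangles the 3 knockdowns, and a library with 0 reads in a gene is not drawn. The mRNAs and rRNAs lie from 649 to 8152 CPM per kb in controls, MT-RNR2 shows the widest gap between groups, and most tRNA genes lie far below.

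Most tRNA genes had few reads, and the cause was not tested. Values at a tRNA locus in poly(A)-selected RNA with 50 bp reads are reads over that locus and not levels of mature tRNA. Of the 22, 17 were tested, 3 rose (17.6%, beside 17.5% of all genes) and 14 did not pass, with a median log2 fold change of 0.12. Only 4 tRNA genes exceeded 10 CPM in controls, and all 4 are on the minus strand: MT-TN, MT-TS1, MT-TY and MT-TC.

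The 3 that rose are neighbours in the minus-strand cluster between MT-ND2 and MT-CO1. MT-TN (chrM:5657-5729) had 51.1, 42.7 and 47.7 CPM in controls and 57.6, 69.0 and 61.9 CPM in knockdowns, a log2 fold change of 0.41 (SE 0.08, limma adjusted p = 0.0016). MT-TC (chrM:5761-5826) had 12.5, 14.6 and 15.5 CPM in controls and 18.1, 16.9 and 19.6 CPM in knockdowns (0.36, SE 0.09, adjusted p = 0.0081). MT-TY (chrM:5826-5891) had 27.8, 27.8 and 24.8 CPM in controls and 34.2, 36.2 and 31.5 CPM in knockdowns (0.34, SE 0.07, adjusted p = 0.0028). For each of the 3, all knockdowns lay above all controls, as held for 22.6% of all genes tested. The genes beside them on the plus strand, MT-ND2 and MT-CO1, did not pass the test. MT-TA, the alanine tRNA gene of the same cluster, had only 29, 16 and 44 reads in controls and 22, 16 and 20 in knockdowns (0.10, SE 0.26, adjusted p = 0.79).

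MT-TS1, the remaining abundant minus-strand tRNA gene, lies next to the end of MT-CO1, on the other strand. It had 33.1, 42.0 and 31.5 CPM in controls but 55.0, 26.3 and 21.2 CPM in knockdowns (-0.17, SE 0.27, adjusted p = 0.65). Knockdown replicate 1 was the highest library and the other two knockdowns the lowest, and without knockdown replicate 1 the value was -0.58 with an adjusted p of 0.0060. MT-TE, for glutamate, had 9.78, 9.29 and 9.74 CPM in controls and 11.4, 10.8 and 10.2 CPM in knockdowns, with all knockdowns above all controls, and did not pass (0.17, SE 0.08, adjusted p = 0.11). MT-TP, for proline, had 3.73, 2.33 and 3.14 CPM in controls and 2.82, 2.77 and 3.38 CPM in knockdowns (-0.01, SE 0.17, adjusted p = 0.97), and its sign differed between scalings.

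None of the 10 plus-strand tRNA genes tested passed the test. The most abundant were MT-TH and MT-TS2, for histidine and serine, which lie side by side between MT-ND4 and MT-ND5. MT-TH had 5.08, 5.63 and 6.34 CPM in controls and 5.29, 6.53 and 5.38 CPM in knockdowns (0.01, SE 0.12), while MT-TS2 had 5.0, 6.0 and 6.0 CPM in controls and 5.8, 8.8 and 5.6 CPM in knockdowns (0.22, SE 0.16).

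The other 8 had at most 82 reads in a library, so their values are imprecise. MT-TL1 had 36, 50 and 82 reads in controls and 40, 27 and 40 in knockdowns (log2 fold change 0.02, SE 0.23). MT-TI had 26, 39 and 52 reads in controls and 25, 32 and 24 in knockdowns (0.12, SE 0.25). MT-TT had 13, 16 and 34 reads against 13, 11 and 27 (0.32, SE 0.32). Because the control libraries were deeper, such read numbers compare only after scaling. MT-TV had 6, 7 and 19 reads against 13, 8 and 8 (0.62, SE 0.39), and MT-TK had 15, 15 and 18 against 13, 16 and 11 (0.34, SE 0.30). MT-TM had 16, 16 and 28 reads against 14, 7 and 5 (-0.63, SE 0.40). MT-TG had 21, 13 and 30 reads against 8, 11 and 9 (-0.48, SE 0.29), and MT-TR had 15, 9 and 21 against 15, 5 and 7 (-0.17, SE 0.42). Their SE reached 0.42 on the log2 scale, larger than the log2 fold change of MT-ND1. Without knockdown replicate 1 the value of MT-TM was -1.09 with an adjusted p of 0.032.

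The 5 genes under the filter, MT-TF, MT-TQ, MT-TW, MT-TD and MT-TL2, had 0 to 17 reads in a library. MT-TQ, for glutamine, had 13, 9 and 13 reads in controls and 1, 4 and 2 in knockdowns, and in a fit without a filter its log2 fold change was -1.62 (limma adjusted p = 0.034), the single mitochondrial gene called lower in that fit, in which 12.2% of all genes were. It overlaps the end of MT-TI on the other strand. For MT-TD, the lowest, no library had more than 4 reads.

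By strand, 7 of 24 tested genes of the plus strand and 4 of 8 of the minus strand rose (29.2% and 50%, beside 17.5% of all genes), with median log2 fold changes of 0.10 and 0.20. Whether the strands differ was not tested. The minus strand's share of mitochondrial reads averaged 1.87% ± 0.053 over the controls and 2.00% ± 0.099 over the knockdowns (SD, n = 3). The values were 1.91%, 1.88% and 1.81% in controls and 2.11%, 1.99% and 1.91% in knockdowns, which come within 0.01 percentage points of touching. Because the strand setting of the counting is not given in the sources used here, reads from either strand at a locus cannot be told apart, which touches MT-ND6 and the minus-strand tRNA genes in particular. MT-ND6 and its plus-strand neighbour MT-ND5 rose by like amounts, and their read ratio was 0.229, 0.216 and 0.213 in controls against 0.230, 0.221 and 0.208 after knockdown.

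The whole mitochondrial genome held 4.21%, 4.66% and 4.23% of reads in controls and 5.09%, 4.83% and 4.60% in knockdowns. The highest control exceeded the lowest knockdown, so the groups overlapped, at 4.37% ± 0.26 against 4.84% ± 0.24 (SD, n = 3). MT-RNR2 accounted for 0.193 of the 0.476 percentage points of difference. Without it the shares were 4.05% ± 0.25 and 4.33% ± 0.24, a view chosen after the values were seen. The rRNA share of all reads, in contrast, was 0.378% ± 0.0083 in controls and 0.582% ± 0.0060 in knockdowns with no overlap. tRNA genes held 0.0154% ± 0.00031 and 0.0183% ± 0.0017.

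Within mitochondrial reads the make-up moved from mRNA towards rRNA. MT-RNR2 held 7.34%, 6.98% and 7.49% of mitochondrial reads in controls and 10.0%, 10.7% and 10.9% in knockdowns. All rRNA reads went from 8.68% ± 0.33 to 12.04% ± 0.56, and mRNA reads from 91.0% ± 0.34 to 87.6% ± 0.54 (SD, n = 3). Among mRNAs the loss of share was in complex IV, at 45.2% ± 0.50 in controls and 42.0% ± 0.22 in knockdowns, and in ATP synthase, at 7.26% ± 0.15 and 6.49% ± 0.30, both without overlap. Complex I mRNAs held 34.3% ± 0.77 and 34.8% ± 0.55, and the complex III mRNA 4.20% ± 0.098 and 4.30% ± 0.088, both with overlap. These shares add up to the same whole, so a larger rRNA share lowers the others. When each library was scaled to its own mitochondrial reads and refitted, which moved the median of all genes to -0.17, MT-RNR2 (0.54, SE 0.07, limma adjusted p = 3.9e-05) and MT-ND1 (0.27, SE 0.06, adjusted p = 0.0042) were called higher, beside 7.5% of all genes. MT-CO2 was called lower (-0.21, SE 0.06, adjusted p = 0.018), beside 29.9%, and the other 9 genes called before did not pass. Of those 11 genes, MT-ND3 changed sign under that scaling, to -0.02.

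**Figure D3:**
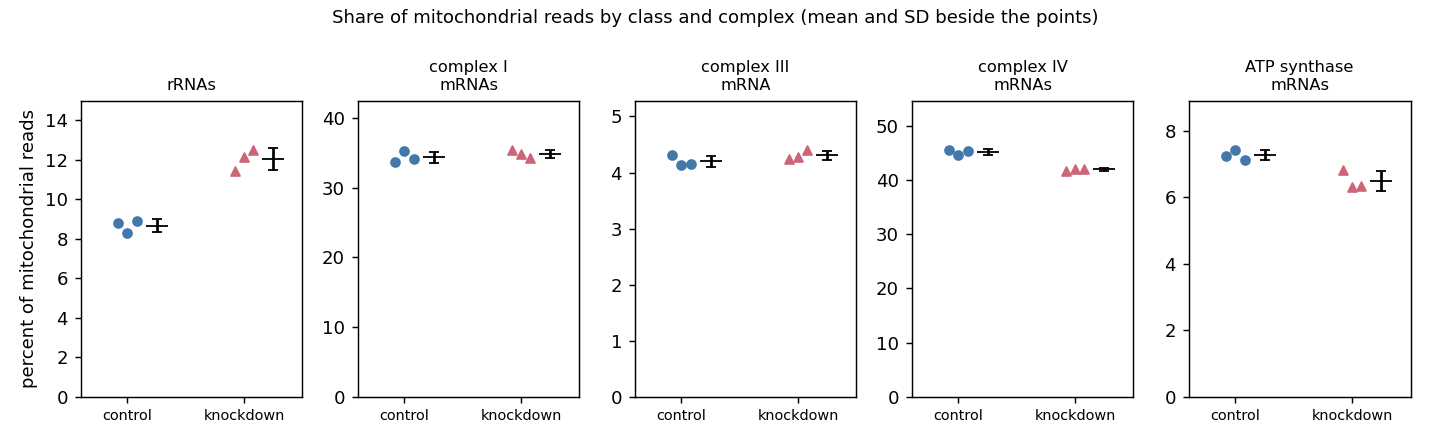
Percent of mitochondrial reads held by the rRNAs and by the mRNAs of each complex, 1 panel each with its own axis from 0; circles are controls and triangles knockdowns, and the bar beside them is the mean with its SD (n = 3). The rRNA share stands near 8.68% in controls and 12.04% in knockdowns, the complex IV and ATP synthase shares are lower in every knockdown, and complexes I and III overlap.

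Ratios of neighbouring genes within a library do not depend on how libraries are scaled. In 3 of the 5 ratios examined the groups did not overlap: MT-RNR1 to MT-RNR2 (log2 difference -0.46), MT-RNR2 to MT-ND1 (0.27) and MT-ND4L to MT-ND4 (0.08). Each had the smallest p that an exact two-sided permutation test of 3 against 3 allows, 0.1, or 0.167 adjusted over the 5 ratios, so no ratio could pass 0.05. The MT-ATP8 to MT-ATP6 ratio differed by 0.05 (exact p = 0.7) and the MT-ND6 to MT-ND5 ratio by 0.00 (exact p = 1), both with overlapping groups. The MT-ND4L to MT-ND4 ratio was 0.124, 0.126 and 0.124 in controls and 0.128, 0.131 and 0.137 in knockdowns, a small difference in a pair of genes whose coding sequences overlap on a shared mRNA.

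Copies of mitochondrial DNA inserted into nuclear chromosomes (pseudogenes named MTCO1P12, MTRNR2L8 and so on) can take up reads of the mitochondrial genes. A stretch of MT-RNR2, bases 663 to 722 of the gene, is set beside its counterparts in 2 nuclear copies, with capitals at differing bases. It was chosen as the 60-base stretch without gaps in which these 2 copies differ most from MT-RNR2.
MT-RNR2: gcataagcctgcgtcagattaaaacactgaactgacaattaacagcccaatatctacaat
MTRNR2L8: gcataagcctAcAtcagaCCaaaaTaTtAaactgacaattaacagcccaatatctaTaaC
MTRNR2L12: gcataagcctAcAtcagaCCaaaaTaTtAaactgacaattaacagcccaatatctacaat
MTRNR2L8 differs at 9 of these 60 bases and MTRNR2L12 at 7. Over the whole transcript of each copy the identity to MT-RNR2 was higher, 93.0% for MTRNR2L8 and 95.1% for MTRNR2L12.

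Of all 50-base words in a mitochondrial gene, 49.5% in MT-CO1, 46.7% in MT-ATP6 and 43.6% in MT-ND2 also occur in a nuclear GENCODE transcript, against 14.0% in MT-RNR2, 22.1% in MT-ND1, 4.76% in MT-ND5 and 0 in MT-RNR1, MT-ND3, MT-ND4L and all tRNA genes. Only transcripts were searched, so a 0 does not show that the nuclear genome holds no copy of a gene. Copies were found by names derived from mRNA and rRNA genes, so copies of tRNA genes were not looked for. The table holds 403 such nuclear copies, of which 29 were tested. Among them 7 rose in limma (adjusted p under 0.05), a share of 24.1% beside 17.5% of all genes, and 25 of the 29 had the sign of the mitochondrial gene they derive from. MT-RNR2 has 13 copies in the table, and 5 of the 7 tested rose. Reads assigned to a copy and to its mitochondrial gene cannot be fully told apart, so these values are uncertain.

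The 5 most abundant copies belong to genes that did not pass the test, and none of the 5 passed it. MTCO1P12 stood at 2900 ± 139 CPM in controls and 3109 ± 142 in knockdowns (SD, n = 3), 28.6% of the control level of MT-CO1, to which it is 98.6% identical; its log2 fold change was 0.10 (SE 0.05) beside 0.07 for MT-CO1. MTCO3P12 had a log2 fold change of 0.04 (SE 0.05), MTATP6P1 of -0.05 (SE 0.07), MTCO2P12 of -0.09 (SE 0.05) and MTND4P12 of 0.10 (SE 0.07). Each lay within 0.03 of its mitochondrial gene. The copies that rose, chosen for mention after their values were seen, were copies of genes that rose. MTRNR2L8 rose by 0.69 (SE 0.05), MTRNR2L2 by 0.79 (SE 0.05), MTRNR2L12 by 0.54 (SE 0.05), MTRNR2L9 by 0.81 (SE 0.07), MTRNR2L6 by 0.86 (SE 0.14), MTND1P23 by 0.38 (SE 0.05) and MTND6P4 by 0.26 (SE 0.07), all with limma adjusted p at or below 0.012. For every 100 reads in MT-RNR2, control libraries had 9.98 ± 0.23 reads in its copies and knockdown libraries 10.1 ± 0.17. Adding the copies' reads to each mitochondrial gene gave 0.67 for MT-RNR2, 0.40 for MT-ND1 and again 11 genes called, beside 41% of all genes in that fit.

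**Figure D4:**
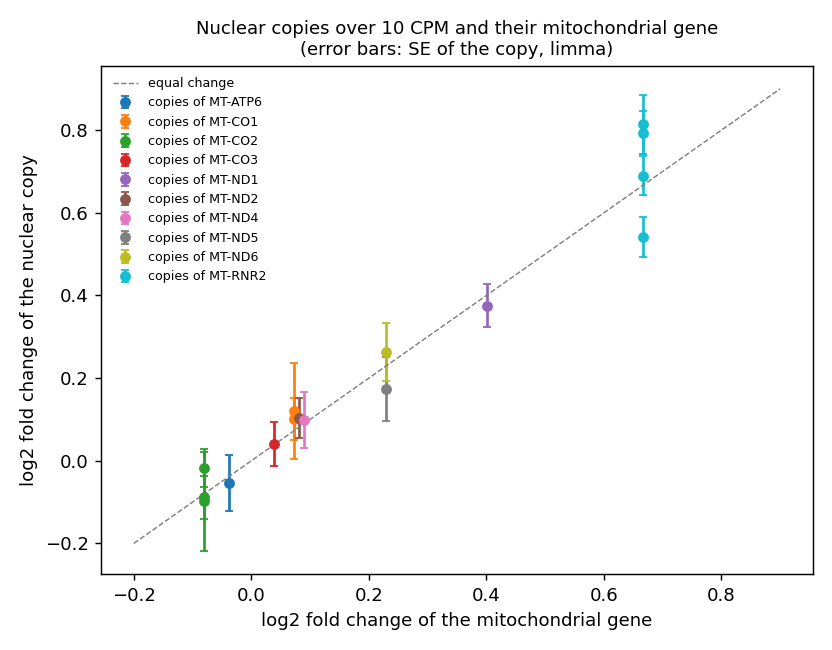
Log2 fold change of nuclear copies with a mean above 10 CPM (vertical axis, SE as bars) against that of the mitochondrial gene each derives from (horizontal axis); colours give the mitochondrial gene and the dashed line equal change. The points lie along the line, with the MT-RNR2 copies between 0.54 and 0.81 at the right end.

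The nuclear genes listed here for maintaining mitochondrial DNA and for making, cutting, modifying and decaying its RNA fell more often than they rose. Of 103 such genes, all tested, 33 fell (32.0%, beside 23.5% of all genes) and 5 rose (4.85%, beside 17.5%), with a median log2 fold change of -0.09. Without control replicate 3, 20 fell and 4 rose. The lists were written with earlier results of these data known.

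For maintenance of the mitochondrial DNA, 7 of 18 genes fell (38.9%, beside 23.5% of all genes) and 1 rose (5.56%, beside 17.5%). RNASEH1, which removes RNA from RNA-DNA hybrids, went from 32.6, 35.2 and 33.7 CPM to 21.6, 22.4 and 21.3 (-0.64, SE 0.06, limma adjusted p = 1.0e-05). ATAD3A, an inner membrane ATPase, went from 56.2, 45.8 and 59.0 CPM to 32.9, 41.2 and 37.4 (-0.53, SE 0.10, adjusted p = 0.0017). All knockdowns lay below all controls for both, as held for 28.5% of all genes tested.

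For transcription, 3 of 10 genes fell (30%, beside 23.5% of all genes) and 1 rose (10%, beside 17.5%). TFAM, which packages mitochondrial DNA and opens its promoters, rose from 25.1, 30.5 and 28.8 CPM to 36.1, 31.9 and 34.8 (0.29, SE 0.08, limma adjusted p = 0.013), and its adjusted p reached 0.053 when single libraries were left out. MRPL12, a ribosomal protein also reported to bind POLRMT, went from 20.6, 10.9 and 19.2 CPM to 6.36, 13.7 and 10.3 (-0.75, SE 0.27, adjusted p = 0.046), with overlapping groups. Its adjusted p lay between 0.0018 and 0.17 when single libraries were left out. The polymerase POLRMT itself had 42.9, 31.0 and 40.2 CPM in controls and 29.4, 44.7 and 37.1 in knockdowns (-0.04, SE 0.15, adjusted p = 0.84). POLRMT is named, like LRPPRC and MTPAP further on, for its role and outside the rule for named genes.

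Among 8 genes listed for RNA cleavage, 3 fell (37.5%, beside 23.5% of all genes) and 2 rose (25%, beside 17.5%). LACTB2, a mitochondrial endoribonuclease, went from 5.87, 7.43 and 7.23 CPM to 3.45, 4.40 and 4.88 (-0.69, SE 0.14, limma adjusted p = 0.0027), while SLFN12, an RNase better known outside mitochondria, went from 21.7, 22.6 and 22.2 CPM to 36.3, 35.7 and 40.5 (0.76, SE 0.06, adjusted p = 5.9e-06). Of 15 genes of RNA stability and decay, 4 fell, or 26.7%, a share near that of all genes (23.5%). None of the 15 rose, beside 17.5% of all genes. SLIRP, the partner of LRPPRC in binding mitochondrial mRNAs, fell by 0.20 (SE 0.06, adjusted p = 0.016), and TRNT1, which adds the CCA end to tRNAs, fell by 0.25 (SE 0.07, adjusted p = 0.020). Both missed 0.05 in at least one leave-one-out fit. LRPPRC had a log2 fold change of 0.01 (SE 0.05) and the mitochondrial poly(A) polymerase MTPAP of 0.14 (SE 0.06, adjusted p = 0.091).

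Among 30 genes of RNA modification 7 fell, or 23.3%, a share like that of all genes (23.5%). None of the 30 rose, beside 17.5% of all genes. MRM1, a methyltransferase of the large-subunit rRNA MT-RNR2, went from 7.08, 6.19 and 6.93 CPM to 3.68, 4.48 and 4.27 (-0.70, SE 0.11, limma adjusted p = 0.00053). The tRNA methyltransferase TRMT1 fell by 0.54 (SE 0.07, adjusted p = 0.00023) and RPUSD3, a pseudouridine synthase family protein, by 0.54 (SE 0.06, adjusted p = 5.4e-05). Of the 22 genes for charging tRNAs with amino acids, 9 fell (40.9%, beside 23.5% of all genes) and 1 rose (4.55%, beside 17.5%). LARS2, for leucine, went from 56.9, 61.9 and 58.9 CPM to 42.0, 35.6 and 36.5 (-0.64, SE 0.07, adjusted p = 3.2e-05), and HARS2, for histidine, from 33.7, 35.4 and 35.3 CPM to 25.01, 23.61 and 24.54 (-0.51, SE 0.05, adjusted p = 3.7e-05). The knockdown libraries lay below all controls for each of these 5 genes, as held for 28.5% of all genes tested. These 5 were named for the size of their falls.

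The nuclear-encoded partners in the same respiratory complexes likewise fell more often than they rose, while the mitochondrial mRNAs of those complexes either rose or did not pass. Of 79 nuclear subunits, 29 fell (36.7%, beside 23.5% of all genes) and 2 rose (2.53%, beside 17.5%), with a median log2 fold change of -0.09. In complex I, 16 of 37 fell (43.2%) and 2 rose (5.41%). The highest rise was that of NDUFA7 (0.82, SE 0.28, adjusted p = 0.036), which rests on 0.323, 0.400 and 0.298 CPM in controls and 0.628, 0.683 and 0.499 in knockdowns, from a gene record that overlaps others, so its value is uncertain. Without single libraries its adjusted p reached 0.12. A further record of NDUFA7, also with very few reads, was not used.

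In complex II, which has no mitochondrial gene, 2 of 4 subunits fell (50%, beside 23.5% of all genes). SDHB, its iron-sulfur subunit, went from 69.0, 71.1 and 74.1 CPM to 55.4, 55.1 and 58.4 (-0.34, SE 0.05, limma adjusted p = 0.00029). In complex III 3 of 9 fell (33.3%), led by cytochrome c1, CYC1, from 95.4, 94.1 and 96.2 CPM to 67.9, 77.5 and 75.8 (-0.37, SE 0.05, adjusted p = 0.00033). In complex IV 2 of 11 fell (18.2%, under the 23.5% of all genes), led by COX8A from 128, 118 and 128 CPM to 80.5, 96.0 and 88.4 (-0.51, SE 0.06, adjusted p = 0.00012). In ATP synthase 6 of 18 fell (33.3%), led by its catalytic beta subunit ATP5F1B (ATP5B in the table), from 658, 685 and 707 CPM to 299, 291 and 296 (-1.21, SE 0.04, adjusted p = 2.1e-08). For each of these 4 genes, named for the size of their falls, every knockdown lay below every control, as held for 28.5% of all genes tested.

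**Figure D5:**
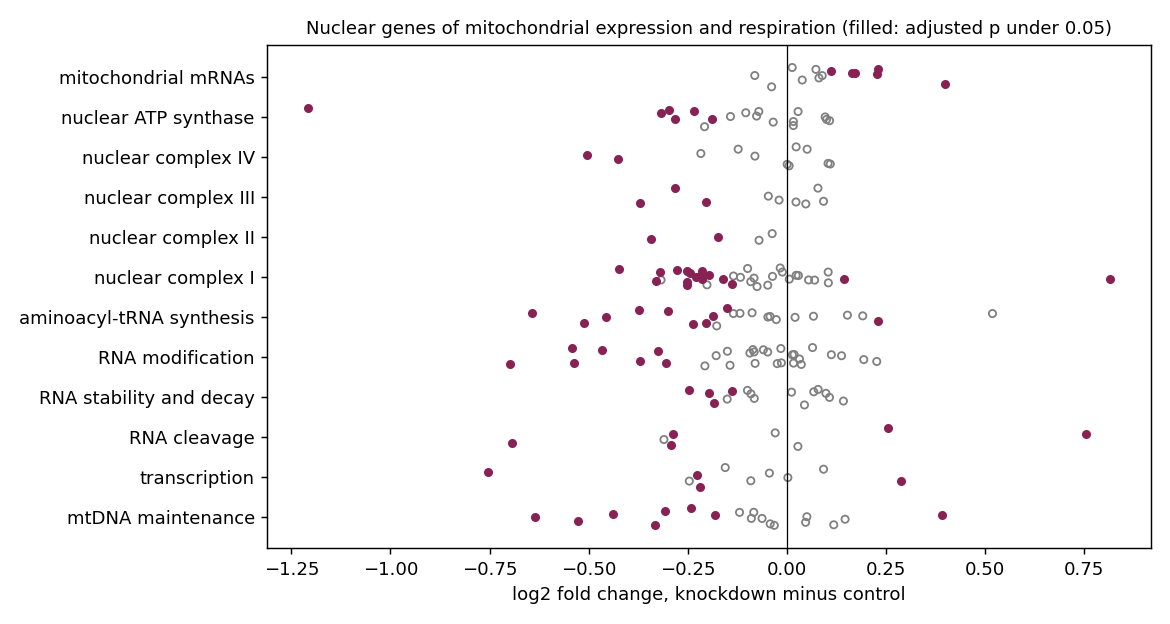
Log2 fold change (knockdown minus control, horizontal axis) of each nuclear gene listed for mitochondrial gene expression or as a subunit of a respiratory complex, by role, with the 13 mitochondrial mRNAs on the top line; filled points have an adjusted p under 0.05 in limma, height within a line has no meaning, and 1 gene is not drawn. Filled points lie mostly left of 0 for the nuclear genes, with ATP5F1B at -1.21, and right of 0 for the mitochondrial mRNAs.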

How the data were processed

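PolyA RNA of 6 libraries, 3 per group, was compared. The authors deposited log2 CPM values per gene; per the submitters' processing notes, Bowtie2, featureCounts and hg19 were used, with roles, settings and annotation release not given in the sources used here. Removing an offset of 0.5 reads gave whole reads for 100% of values (tolerance 0.01). Where a library had 0 reads, the limit is 3 reads, 0.0589 to 0.136 RPM by library, for counting error only.

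Limma 3.58.1 (R 4.3.3; lmFit, eBayes with trend, two-sided, group only) was run on the deposited log2 values of the 19048 genes with a mean of at least 10 normalized reads, adjusted by Benjamini-Hochberg over all of them. Limma-voom on recovered reads was an alternative, beside offsets, filters, scalings, thinning, a replicate block and leaving out each library. The fit was tested on simulated data. Members and gene lists were chosen with earlier results of these data known. Named were the mitochondrial mRNAs, rRNAs and tested tRNAs, factors called at a log2 change of at least 0.5 plus the 2 largest calls per role, the largest call each way per nuclear complex, and the 5 most abundant nuclear copies. Replicate pairs differed by more than sampling noise (chi-square per degree of freedom 2.83 to 11.1). Of the table's gene IDs, 51995 matched a current symbol. Genes that overlap others are uncertain, since the strand setting is not given. The result of 1 gene under the naming rule is not reported here, and counts and medians include it.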

Additional observations from a re-analysis of the deposited data

How the results depend on the processing

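At an adjusted p under 0.01, 5195 genes were called across the transcriptome, 6 mitochondrial genes, 23 expression factors and 20 nuclear subunits. Without an intensity trend in eBayes 6 mitochondrial genes were called. Leaving out single libraries gave 5806 to 7336 genes, 6 to 10 mitochondrial genes, 24 to 40 factors and 21 to 33 subunits, the lowest of the first 3 without control replicate 3; fewer samples were tested there. The replicate numbers did not pair the samples (correlations of deviations -0.15, -0.18 and 0.07), and with the replicate block 6454 genes and 9 mitochondrial genes were called.

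Signs changed only for genes and ratios whose reported value did not pass, apart from MT-ND3; the cause was not tested. Scaled to mitochondrial reads, values were -0.111 for MT-TL1, -0.0057 for MT-TI, -0.0493 for MT-ND2, -0.0299 for MT-TA, -0.0569 for MT-CO1, -0.117 for MT-ATP8 and MT-TH, -0.0914 for MT-CO3, -0.0177 for MT-ND3 and -0.0409 for MT-ND4. Quantile normalization gave -0.0725 for MT-CO1, 0.102 for MT-CO2 and 0.0289 for MT-TP. Voom gave -0.0016 for MT-TL1 and -0.0069 for MT-TH, and thinning gave -0.0536 for MT-TL1. MT-TP was 0.0085 with library totals, 0.017 with median-ratio size factors and 0.016 with nuclear reads only.

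Leaving out single libraries gave ranges across 0: MT-TL1 -0.19 to 0.17, MT-TI -0.0719 to 0.307, MT-TA -0.12 to 0.22, MT-TS1 -0.58 to 0.11, MT-ATP8 -0.0421 to 0.0793, MT-ATP6 -0.114 to 0.0361, MT-TR -0.66 to 0.13, MT-TH -0.0835 to 0.0948, MT-TP -0.19 to 0.14, MTATP6P1 -0.119 to 0.0128, the MT-ATP8 to MT-ATP6 ratio -0.0386 to 0.102 and the MT-ND6 to MT-ND5 ratio -0.0324 to 0.0389. The difference in mitochondrial share stayed between 0.351 and 0.624 percentage points. Depth limits the tRNA genes most.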
